A study of Mus musculus with 11 samples.

Results

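Bach2, Bcl6 and Prdm1 encode transcriptional repressors that act in T cells, and the binding of Foxp3, Elf1, Ets1 and Cbfb around these 3 genes was examined. The members were all deposited binding positions and Foxp3 peaks inside 3 fixed windows on mouse build mm9: chr4:32300000-32690000 for Bach2 (390 kb), chr16:23940000-24130000 for Bcl6 (190 kb) and chr10:44140000-44290000 for Prdm1 (150 kb). The windows held 808 of the 1061984 deposited regions, with 591 at Bach2, 117 at Bcl6 and 100 at Prdm1. Among them were 8 of the 2886 Foxp3 peaks, of which 6 lay at Bach2, 1 at Bcl6 and 1 at Prdm1. The windows were not set against an annotation of mm9, so positions are given without exon, intron or promoter labels.

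The study used chromatin immunoprecipitation followed by sequencing (ChIP-seq), in which DNA bound by a protein is recovered with an antibody and sequenced. CD4 T cells came from lymph nodes and spleen of mice about 8 weeks old and were sorted on green fluorescent protein that reports Foxp3. Regulatory T (Treg) cells, positive for the reporter, gave the Foxp3, Elf1, Ets1 and Cbfb libraries, and Foxp3-negative CD4 T cells, called CD4 here, gave Elf1 and Ets1 libraries. Elf1, Ets1 and Cbfb had 1 library per cell type, the Foxp3 list was made by the authors from combined replicates, and no other treatment or genotype is named in the labels. The position lists carry no expression values, so the sorted cell types were not checked against marker genes.

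Bach2 is a basic leucine zipper repressor that keeps T cells from effector differentiation and is needed for normal Treg cells. Bcl6 is a zinc finger repressor best known from follicular helper T cells and germinal centre B cells. Prdm1 encodes Blimp-1, a transcriptional repressor that acts in effector T cells, effector Treg cells and plasma cells. Bcl6 and Blimp-1 repress each other's genes, and Bach2 restrains Prdm1. Ets1 and Elf1 are ETS proteins, which recognise sites with a GGAA core, Cbfb is the partner subunit through which Runx proteins bind DNA more tightly, and Foxp3 is the forkhead factor that defines Treg cells.

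The bases upstream of the annotated start sites are shown to let the ETS and forkhead letters near these genes be seen. The 250 bases before each start were taken from RefSeq on build GRCm38.p6, in which the 3 genes have 4 listed start sites. They are printed 5′ to 3′ on the gene's strand, with matches to GGAA and to TGTTTNC, on either strand, in capitals. The Bach2 and Prdm1 starts listed there lie inside their gene models, whereas the Bcl6 start shown lies within 14 bp of the 5′ end of its model.
Bach2: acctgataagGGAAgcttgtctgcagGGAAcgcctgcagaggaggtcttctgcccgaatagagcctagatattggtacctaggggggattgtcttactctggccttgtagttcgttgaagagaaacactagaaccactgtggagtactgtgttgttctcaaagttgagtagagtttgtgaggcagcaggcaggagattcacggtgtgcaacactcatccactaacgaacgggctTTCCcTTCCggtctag
Bcl6: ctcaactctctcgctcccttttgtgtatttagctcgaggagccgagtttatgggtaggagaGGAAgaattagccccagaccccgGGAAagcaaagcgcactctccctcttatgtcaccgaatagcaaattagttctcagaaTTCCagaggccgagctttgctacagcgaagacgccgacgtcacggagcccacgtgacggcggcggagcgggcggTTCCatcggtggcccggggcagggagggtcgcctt
Prdm1: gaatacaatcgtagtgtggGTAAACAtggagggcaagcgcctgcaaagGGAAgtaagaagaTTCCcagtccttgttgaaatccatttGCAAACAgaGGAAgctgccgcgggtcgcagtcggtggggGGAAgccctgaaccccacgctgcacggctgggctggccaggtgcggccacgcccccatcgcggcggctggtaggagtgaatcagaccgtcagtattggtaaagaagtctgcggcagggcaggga
GGAA occurred 4 times in each of these, and 7 times before the other Bcl6 start, and 93.4% of the 32851 promoters of the same length in the table held it. The longer ETS motif CCGGAAG, which contains GGAA, occurred 1 time, 6 bases or more before the Bach2 start, and was held by 6.91% of promoters. The forkhead motif TGTTTAC, a special case of TGTTTNC, occurred 1 time before the Prdm1 start and in 3.17% of promoters, and TGTTTNC occurred 2 times there and in 17.8% of promoters. The Runx motif TGTGGT, the BACH motif TGCTGAG and the AP-1 motif TGACTCA had no match before any of the 4 starts, against 14.0%, 6.21% and 4.46% of promoters. All motifs were searched on both strands, and a match is a description of letters only. These sequences are on another build than the binding positions, so no position was placed on them.

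Positions with a false discovery rate (FDR, as deposited) of at most 0.01 were used unless stated. In the 3 windows 120 of 144 deposited Treg Elf1 positions passed, against 84.0% of that whole list, and 53 of 72 Treg Cbfb positions, against 75.2%. For CD4 Elf1, 77 of 192 passed (22.2% of the whole list), for Treg Ets1 61 of 152 (27.3%) and for CD4 Ets1 71 of 240 (17.4%). The passing positions numbered 382, with 278 at Bach2, 60 at Bcl6 and 44 at Prdm1. Read depth is unknown for every library, so counts are set against the whole list of the same library rather than against each other.

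Bach2 was the densest of the 3 windows for each of the 5 position lists at this FDR, with many Elf1 and Ets1 positions in both cell types. For Treg Ets1 the order of Bach2 and Bcl6 turned at an FDR of 0.001 (5.08 times the genome-wide mean at Bach2 and 5.87 at Bcl6) and with the 10000 (4.76 and 8.37) or 20000 (5.09 and 6.27) highest scores. The Bach2 window held 80 Treg Elf1, 65 CD4 Elf1, 42 Treg Ets1, 55 CD4 Ets1 and 36 Treg Cbfb positions. Per length this was 3.44 times the genome-wide mean for Treg Elf1 (95% Poisson interval 2.73 to 4.28) and 8.22 times for CD4 Elf1 (6.35 to 10.5). For Ets1 it was 4.61 times in Treg (3.32 to 6.23) and 8.88 times in CD4 (6.69 to 11.6), and for Treg Cbfb 2.00 times (1.40 to 2.78). The authors' lower bound on fold enrichment was at least 1 for 53 of the 80 Treg Elf1 positions (53.0% of that whole list), 39 of 65 for CD4 Elf1 (55.3%), 20 of 42 for Treg Ets1 (42.3%), 36 of 55 for CD4 Ets1 (61.2%) and 17 of 36 for Treg Cbfb (37.0%). The Poisson intervals cover counting error only, and neighbouring positions are not independent of each other. When the genome was divided into 6759 segments of 390 kb, 0.0148% of them, or 1 segment, held as many CD4 Elf1 positions as the Bach2 window. The shares for the other lists were 0.178% for Treg Elf1, 0.814% for Treg Ets1, 0.311% for CD4 Ets1 and 1.23% for Treg Cbfb, and 0.991% of segments held 6 or more Foxp3 peaks.

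Bcl6 and Prdm1 were closer to the genome-wide mean. The Bcl6 window held 21 Treg Elf1, 4 CD4 Elf1, 12 Treg Ets1, 9 CD4 Ets1 and 14 Treg Cbfb positions, or 1.85, 1.04, 2.70, 2.98 and 1.60 times the mean in that order. The Prdm1 window held 19, 8, 7, 7 and 3, or 2.12, 2.63, 2.00, 2.94 and 0.434 times the mean. The interval included 1 for CD4 Elf1 and Cbfb at Bcl6 and for Treg Ets1 and Cbfb at Prdm1. Segments of equal length with at least as many positions made up 6.47% (Treg Ets1) to 35.6% (CD4 Elf1) of the genome for Bcl6, and 6.38% (Treg Elf1) to 88.3% (Treg Cbfb) for Prdm1. Among the 10000 highest-scoring Treg Ets1 positions Bcl6 held 6, and 2.12% of its segments held that many. The median ratio over the 5 lists was 4.61 at Bach2, 1.85 at Bcl6 and 2.12 at Prdm1. With the 20000 highest-scoring positions of each library the Bach2 median was 7.81, and with all deposited positions the Prdm1 median was 1.40.

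**Figure D1:**
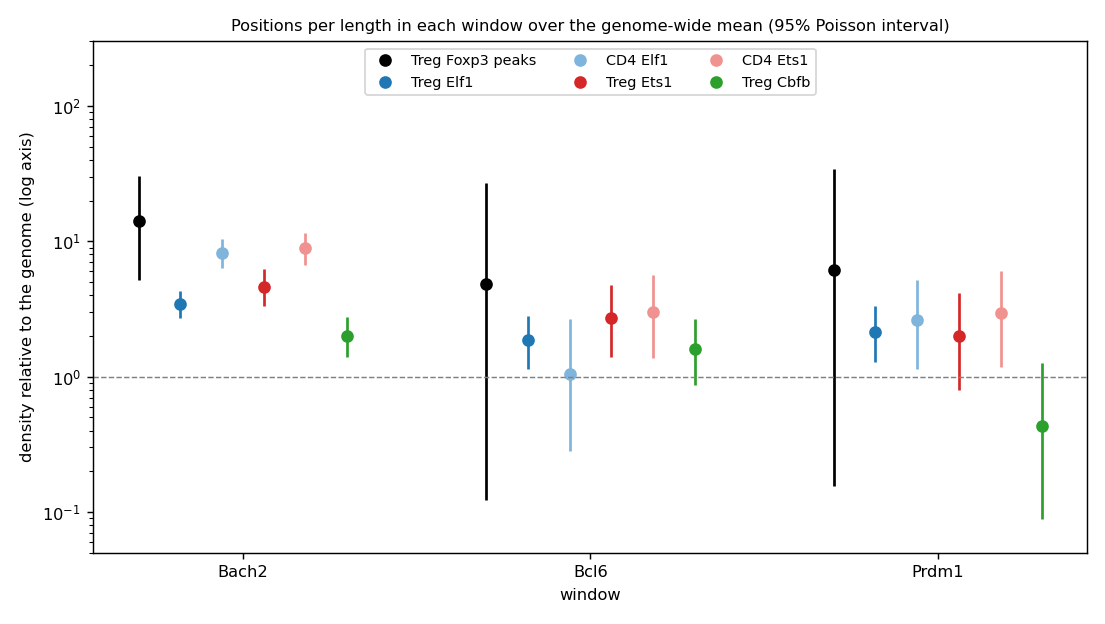
Density of positions with FDR at most 0.01, and of Foxp3 peaks, in each window divided by the genome-wide density of the same list (log axis). Points are ratios, lines are exact 95% Poisson intervals, and the dashed line marks the genome-wide mean. The 5 factor lists run from 2.00 to 8.88 at Bach2, and Cbfb at Prdm1 is at 0.434.

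The 8 Foxp3 peaks all had Elf1 or Ets1 positions within 200 bp in both cell types, which was also so for 92.0% of all Foxp3 peaks. All 4 Elf1 and Ets1 lists were present at 4 of the 8, against 66.1% of all Foxp3 peaks, and all 5 lists at 1 of the 8, against 20.7%. Elf1 in both cell types with Ets1 in neither was found at none of the 8, against 1.63%. Single lists were present at 6 of 8 for Treg Elf1 (85.2% of all peaks), 7 of 8 for CD4 Elf1 (88.9%), 7 of 8 for Treg Ets1 (83.5%), 7 of 8 for CD4 Ets1 (89.0%) and 1 of 8 for Treg Cbfb (28.1%). With so few peaks these counts lie near the shares of the whole Foxp3 list, and the differences between the 8 peaks lay in which factor was present and how strongly.

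At Bach2 the 6 Foxp3 peaks spanned 137562 bp, with neighbours 7818 to 44117 bp apart. Fold enrichment is given as the authors' estimate, and the bound as their lower bound. Peak 1, chr4:32337356-32337556, had CD4 Elf1 at 5.44-fold, Treg Ets1 at 3.33-fold and CD4 Ets1 at 4.08-fold. It had no Treg Elf1 position within 200 bp, the pattern of 5.82% of all Foxp3 peaks, and the nearest, at 4.62-fold, lay 342 bp from its centre. Fold values at peak 1 were thus modest for every factor present.

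Peak 2, chr4:32345174-32345374, was the only 1 of the 8 with all 5 lists. Treg Elf1 stood at 66.1-fold (bound 11.3), CD4 Elf1 at 21.5-fold, CD4 Ets1 at 30.3-fold and Treg Cbfb at 49.6-fold (bound 8.08), whereas Treg Ets1 was at 4.85-fold (bound 1.501). All but the Treg Ets1 position were thus above 20-fold. The 5 positions lay between 27 and 95 bp from the Foxp3 centre. A neighbouring site at chr4:32344702-32344893, outside the Foxp3 interval, also held all 5 lists, with Treg Elf1 at 15.2-fold, CD4 Elf1 at 14.2-fold, Treg Cbfb at 11.3-fold, CD4 Ets1 at 7.53-fold and Treg Ets1 at 4.39-fold.

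Peaks 3 and 4 each had all 4 Elf1 and Ets1 lists and no Cbfb. Peak 3, chr4:32378577-32378777, had low fold values, at 3.58 for Treg Elf1, 1.91 for CD4 Elf1, 2.92 for Treg Ets1 and 4.76 for CD4 Ets1, although the CD4 Ets1 position ranked 1986 of 242086 by score. Peak 4, chr4:32422694-32422894, had Treg Elf1 at 13.2-fold, CD4 Elf1 at 26.8-fold, Treg Ets1 at 7.59-fold and CD4 Ets1 at 9.88-fold. All 4 positions of peak 4 lay within 53 bp of the Foxp3 centre. The sum of the ranks of its positions was the lowest of the Bach2 sites with 4 lists.

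At peak 5, chr4:32430834-32431034, the passing positions of highest fold were those of Elf1. Treg Elf1, the highest-scoring Treg Elf1 position of the window, was at 11.3-fold and CD4 Elf1 at 6.78-fold. Treg Ets1 was at 1.11-fold with a bound of 0.159. A CD4 Ets1 position 48 bp from the centre, at 5.53-fold (bound 2.22), did not pass at an FDR of 0.0143.

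Peak 6, chr4:32474918-32475118, carried the highest-scoring CD4 Ets1 position of the Bach2 window, at 23.1-fold (bound 6.71) and rank 597 of 242086. CD4 Elf1 was at 16.0-fold and Treg Elf1 at 5.24-fold. No Treg Ets1 position of any FDR lay within 200 bp, and the nearest was 599 bp from the centre, at an FDR of 0.0467. The other 3 Elf1 and Ets1 lists without Treg Ets1 was a pattern found at 8.63% of all Foxp3 peaks.

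The single Foxp3 peak at Bcl6, chr16:23988906-23989106, was an Ets1 site with no Elf1 position within 200 bp in either cell type. Treg Ets1 was at 190-fold (bound 35.4), rank 287 of 226148, 88 bp from the centre, and CD4 Ets1 at 120-fold (bound 22.4), rank 216 of 242086, 116 bp from the centre. These are the highest fold values of any position in the 3 windows. The nearest Treg Elf1 position lay 1267 bp away at 3.84-fold, the nearest passing CD4 Elf1 position 3109 bp away at 4.97-fold, and a CD4 Elf1 position 442 bp away had an FDR of 0.0402. Ets1 in both cell types with Elf1 in neither was found at 2.39% of all Foxp3 peaks.

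At Prdm1 the single Foxp3 peak, chr10:44168031-44168231, held all 4 Elf1 and Ets1 lists within 33 bp of its centre. Treg Elf1 was at 28.5-fold (bound 7.92), CD4 Elf1 at 33.5-fold (bound 12.2), CD4 Ets1 at 30.3-fold (bound 8.996) and Treg Ets1 at 11.3-fold (bound 2.74). Each was the highest-scoring position of its list in the Prdm1 window, and the CD4 Ets1 position ranked 654 of 242086. A Treg Cbfb position 10 bp from the centre, at 11.3-fold, did not pass at an FDR of 0.0459.

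**Figure D2:**
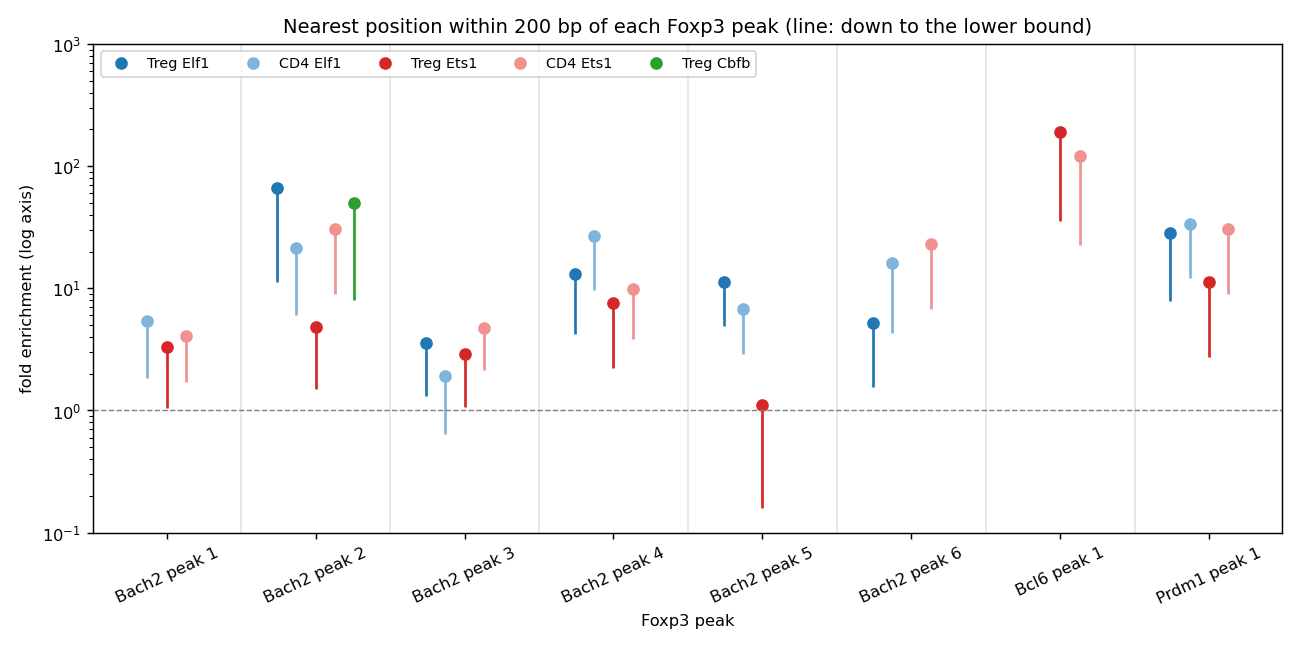
Fold enrichment (log axis) of the position nearest to the centre in each list, for the 8 Foxp3 peaks, shown where it lies within 200 bp of the peak and passes an FDR of 0.01. Points are the authors' estimates and lines run down to their lower bounds. Bach2 peak 2 has all 5 lists, and Bcl6 has the 2 Ets1 lists alone, at 190-fold and 120-fold.

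Outside the windows, 2 further Foxp3 peaks, chr4:32251186-32251386 and chr4:32251472-32251672, lay 48.7 and 48.4 kb before the Bach2 window, and the next after it lay 645 kb away. The nearest Foxp3 peaks beyond the Bcl6 window lay 612 kb before and 7970 kb after it, and those beyond the Prdm1 window 1522 kb before and 252 kb after it. Only the Bach2 limits therefore had Foxp3 peaks within 50 kb outside.

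Most positions in the windows were away from Foxp3. At Bach2, 5 of 80 Treg Elf1 positions lay within 200 bp of a Foxp3 peak (6.25%, exact 95% interval 2.06 to 14.0, against 1.8% of the whole list), and 6 of 65 CD4 Elf1 positions (9.23%, 3.46 to 19.0, against 4.87%). For Ets1 it was 5 of 42 in Treg (11.9%, 3.98 to 25.6, against 4.14%) and 5 of 55 in CD4 (9.09%, 3.02 to 19.95, against 6.49%), and for Treg Cbfb 1 of 36 (2.78%, 0.0703 to 14.5, against 0.65%). The shares were above those of the whole lists, with intervals that excluded the whole-list share for Treg Elf1 and included it for the other 4. The window is also dense in Foxp3 peaks, and the part of that density in these shares was not tested. The stretch between the first and the last Foxp3 peak, 35.3% of the Bach2 window, held 40 of the 80 Treg Elf1 positions (38.6 to 61.4%), 55.4% of CD4 Elf1 (42.5 to 67.7), 52.4% of Treg Ets1 (36.4 to 68.0) and 56.4% of CD4 Ets1 (42.3 to 69.7). Treg Cbfb was spread more evenly, with 36.1% (20.8 to 53.8) of its positions in that stretch.

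**Figure D3:**
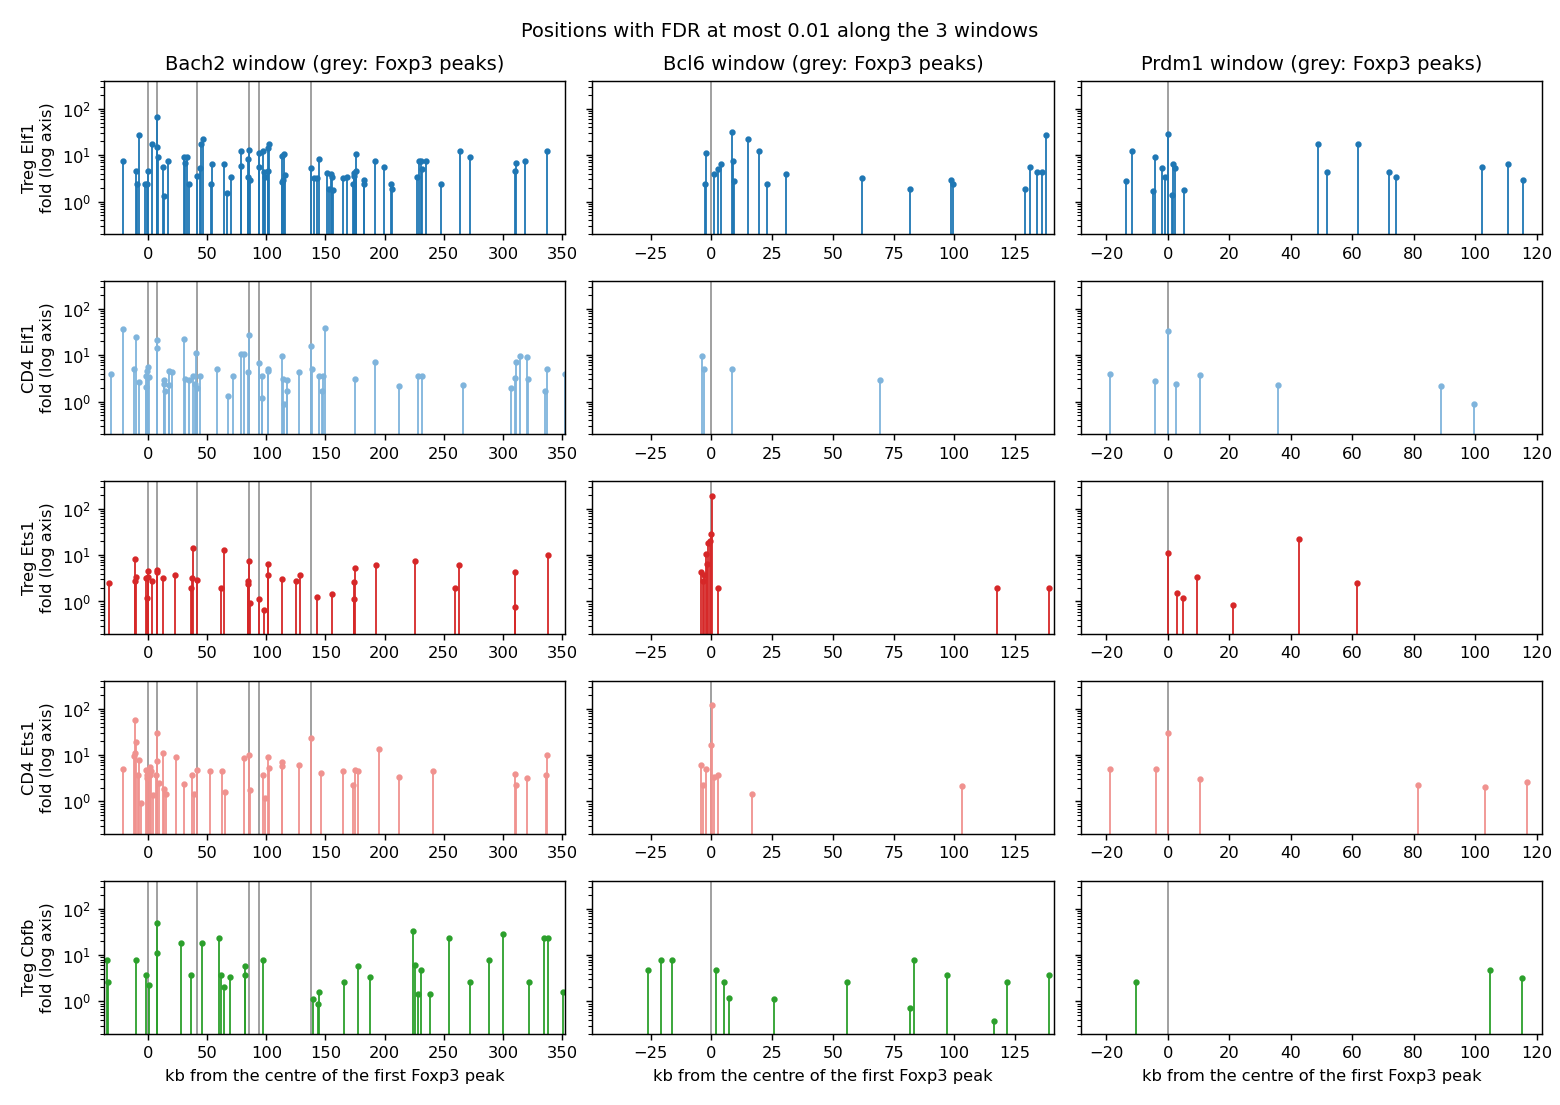
Fold enrichment (log axis) of every position with FDR at most 0.01 along the 3 windows, by list, at its distance in kb from the centre of the first Foxp3 peak. Grey lines mark Foxp3 peaks. At Bach2 the Elf1 and Ets1 positions lie mostly towards the start of the 390 kb window. Their median positions are 78606 bp (CD4 Ets1) to 139544 bp (Treg Elf1) from it, and that of Treg Cbfb is 179086 bp from it. The strong Ets1 positions at Bcl6 lie together around the Foxp3 peak.

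The positions of highest score in the Bach2 window included several with no Foxp3 peak close by. At chr4 position 32316444, 21012 bp from the nearest Foxp3 centre, CD4 Elf1 was at 35.9-fold (bound 10.5), and Treg Elf1 45 bp away was at 7.34-fold. The highest-scoring Treg Ets1 position, 32375099, stood at 14.0-fold (bound 3.56) and lay 3578 bp from a Foxp3 centre. The highest-scoring Treg Cbfb position, 32637393, was at 28.7-fold (bound 4.11), rank 1228 of 161760, and lay 162375 bp from the nearest Foxp3 centre and more than 7 kb from any passing Elf1 or Ets1 position. The second Treg Cbfb position by score, 32338126, was at 2.21-fold and lay 670 bp from the centre of peak 1. By fold, however, the highest Treg Elf1 and Treg Cbfb positions of the window were both at peak 2.

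A stretch of 2936 bp before the first Foxp3 peak, chr4:32325602-32328538, held 13 positions of all 5 lists. Its 5 CD4 Ets1 positions ran from 3.64-fold to 57.1-fold, and its 3 Treg Ets1 positions from 2.80-fold to 8.39-fold. CD4 Elf1 reached 24.8-fold there and Treg Elf1 4.54-fold. A second stretch, chr4:32334496-32339551, surrounded peak 1 with 21 positions of all 5 lists, none above 5.58-fold. These stretches, made by joining positions at most 1 kb apart, were chosen after the values had been seen.

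When positions of the 5 lists at most 200 bp apart were joined into sites, Bach2 had 187 sites, of which 9 held 4 or 5 lists. Of these 9, 3 lay at Foxp3 peaks. The genome-wide share of such sites at Foxp3 peaks was not computed, so whether 3 of 9 is high or low is unknown. Genome-wide 2.05% of sites held 4 or 5 lists and 0.38% held all 5, and Bach2 had 2 of the latter. Positions of different lists are more often joined where they are dense, and the part of density in these counts was not tested. The 5 strongest of the 9 by summed rank were the sites of peaks 2, 3 and 4, a site at chr4:32450715-32451053 and the site beside peak 2. The sum has a further term where all 5 lists are present, so sites with 4 and with 5 lists are not ordered against each other. At chr4:32450715-32451053 Treg Elf1 reached 9.51-fold, CD4 Elf1 9.39-fold, CD4 Ets1 7.11-fold and Treg Ets1 3.09-fold. Bcl6 had 47 sites, none with 4 or 5 lists, and Prdm1 had 38, of which 1, its Foxp3 peak, held 4.

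Bcl6 differed in layout. Its Ets1 positions were gathered around the Foxp3 peak in a stretch of 7094 bp, chr16:23984632-23991726, which held 10 of the 12 Treg Ets1 and 7 of the 9 CD4 Ets1 positions of the window. The same stretch held 4 Treg Elf1, 2 CD4 Elf1 and 1 Treg Cbfb positions. Beside the position at the Foxp3 peak, Treg Ets1 stood at 29.2-fold (position 23988699), 20.6-fold (23988480, rank 636), 18.0-fold (23987782) and 10.6-fold (23986596). CD4 Ets1 had a second high position there, at 16.5-fold (23988636, rank 301 of 242086), and its other 5 positions ran from 2.25-fold to 6.07-fold. The highest-scoring Treg Elf1 position, 23991726, was at 5.06-fold, and the highest-scoring CD4 Elf1 position, 23985897, was at 4.97-fold, and by fold Elf1 reached 11.3 in Treg (23986819) and 9.39 in CD4 (23984964) in this stretch. The 14 Cbfb positions of the Bcl6 window ran from 0.373-fold to 7.84-fold with a median of 3.14, against 4.36 over the whole Cbfb list. The 2 with the highest scores, 23990860 and 23962777, were both at 4.70-fold.

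**Figure D4:**
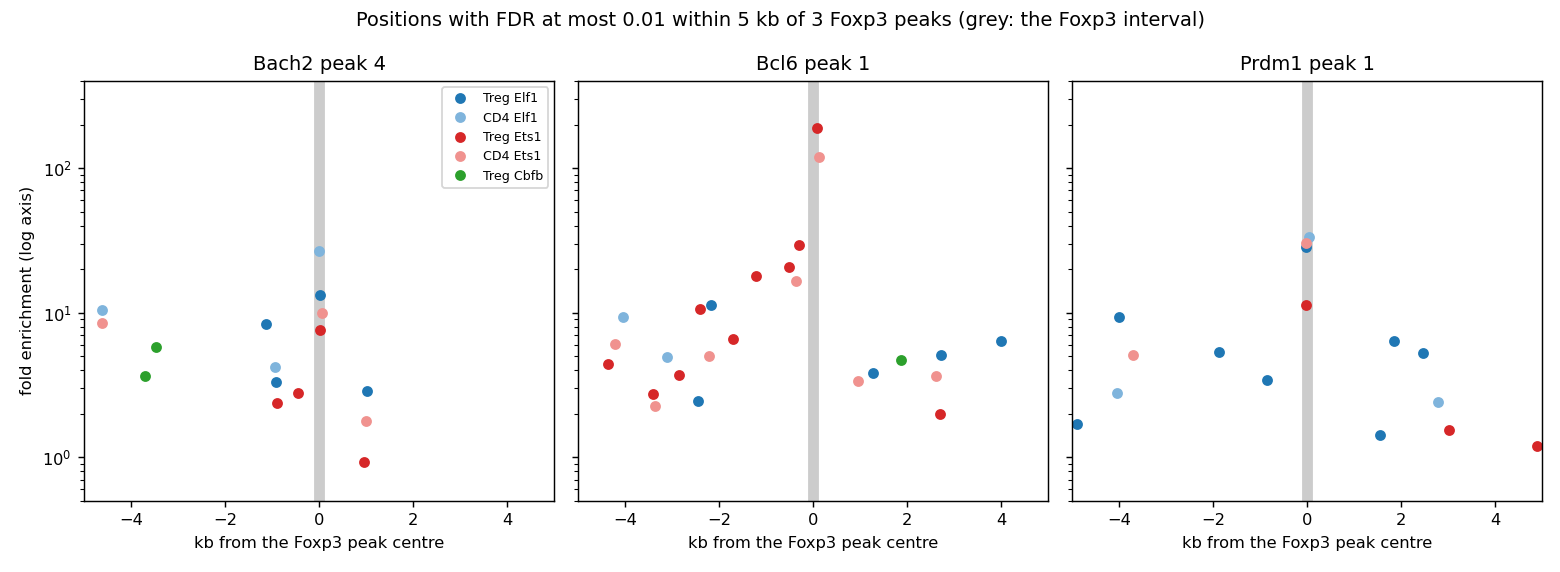
Fold enrichment (log axis) of positions with FDR at most 0.01 within 5 kb of 3 Foxp3 peaks, at their distance in kb from the peak centre, with the Foxp3 interval in grey. Elf1 and Ets1 coincide at Bach2 peak 4 and at Prdm1, whereas at Bcl6 the interval holds Ets1 alone, with further Ets1 positions on both sides.

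Beyond its Foxp3 peak, Prdm1 had few CD4 positions of high fold. The second-highest Treg Elf1 position by score, 44156553, was at 12.2-fold and lay 11578 bp from the Foxp3 centre. Treg Elf1 reached 17.1-fold at 44216923 and 44230166, both named after their values were seen. By score, however, these 2 ranked only 146943 and 100653 of 187745. The second CD4 Elf1 position by score, 44178789, was at 3.76-fold, and the second Treg Ets1 position, 44177746, at 3.45-fold. The other CD4 Elf1 positions were at most 4.02-fold and the other CD4 Ets1 positions at most 5.10-fold. Treg Ets1 reached 21.97-fold at position 44210753, 42622 bp from the Foxp3 centre, with a bound of 3.14, and no CD4 Ets1 position of any FDR lay within 7 kb of it. Cbfb had 3 positions, at 2.61-fold, 3.19-fold and 4.70-fold, none within 10 kb of the Foxp3 peak.

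The comparison of cell types asked whether the same sites were bound in Treg and in Foxp3-negative CD4 cells. At Bach2, 24 of 80 Treg Elf1 positions had a CD4 Elf1 position within 200 bp (30.0%, 20.3 to 41.3, against 11.4% of the whole list), and 17 of 42 Treg Ets1 positions a CD4 Ets1 position (40.5%, 25.6 to 56.7, against 18.7%). In the other direction the shares were 35.4% of CD4 Elf1 (23.9 to 48.2, against 32.5%) and 29.1% of CD4 Ets1 positions (17.6 to 42.9, against 27.7%). At Bcl6, 7 of 12 Treg Ets1 positions (58.3%, 27.7 to 84.8) and 6 of 9 CD4 Ets1 positions (66.7%, 29.9 to 92.5) had a counterpart, but 1 of 21 Treg Elf1 positions did. At Prdm1, 1 of 7 Ets1 positions had a counterpart in each direction, and 2 of 19 Treg Elf1 positions did. The whole-list shares depend on list length, and the number of Treg Elf1 positions that passed was much larger than for the other Elf1 and Ets1 lists. A window dense in positions also offers more counterparts within 200 bp, and the part of density in the shares was not tested.

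Ets1 at Bach2 had lower fold values in Treg than in CD4. All 17 common positions were lower in Treg, where 68.5% of common Ets1 positions genome-wide were lower. The median log2 ratio of Treg to CD4 fold was -0.93 (SD 0.80 over positions, -2.65 to -0.21), against -0.44 over all 11551 common Ets1 positions. The median fold was 3.14 in Treg and 7.53 in CD4, and the 17 Treg positions were matched to 15 distinct CD4 positions. The lowest ratio was at peak 2, and the next lowest, -2.51, in the stretch before the first Foxp3 peak. With all deposited positions 33 of 43 were lower in Treg, against 58.1% of common Ets1 positions genome-wide. With a matching distance of 500 bp it was 21 of 26, against 66.5%.

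At Bcl6 the Ets1 ratio had the other sign. Of 7 common positions, matched to 6 distinct CD4 positions, 2 were lower in Treg, and the median log2 ratio was 0.33 (SD 0.70, -0.87 to 1.07). All 7 lay in the stretch chr16:23984632-23991726 around the Foxp3 peak, so they are not independent of each other. When scores took the place of fold enrichment the median was -0.70, with 93.2% of all common Ets1 positions lower in Treg on that measure. The only common Ets1 position at Prdm1, at its Foxp3 peak, had a log2 ratio of -1.42. With 1 library of Ets1 per cell type, none of these ratios has a replicate check.

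Elf1 at Bach2 showed no such shift in fold enrichment. Of 24 common positions 10 were lower in Treg, against 57.7% genome-wide, and the median log2 ratio was 0.16 (SD 1.33, -2.45 to 3.37), against -0.17. Single positions differed strongly in both directions: at peak 2 Treg stood at 66.1-fold and CD4 at 21.5-fold, whereas at peak 6 Treg stood at 5.24-fold and CD4 at 16.0-fold. With scores in place of fold enrichment the Bach2 median was -1.44, as 93.6% of all common Elf1 positions were then lower in Treg. The single common Elf1 position at Bcl6, 23997519 in Treg, stood at 31.8-fold in Treg (bound 4.77) and 4.97-fold in CD4, a log2 ratio of 2.68. By score, however, it ranked 85055 of 187745 in Treg, and its CD4 partner ranked 15259 of 241359. The 2 common Elf1 positions at Prdm1 had a median log2 ratio of 0.76.

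**Figure D5:**
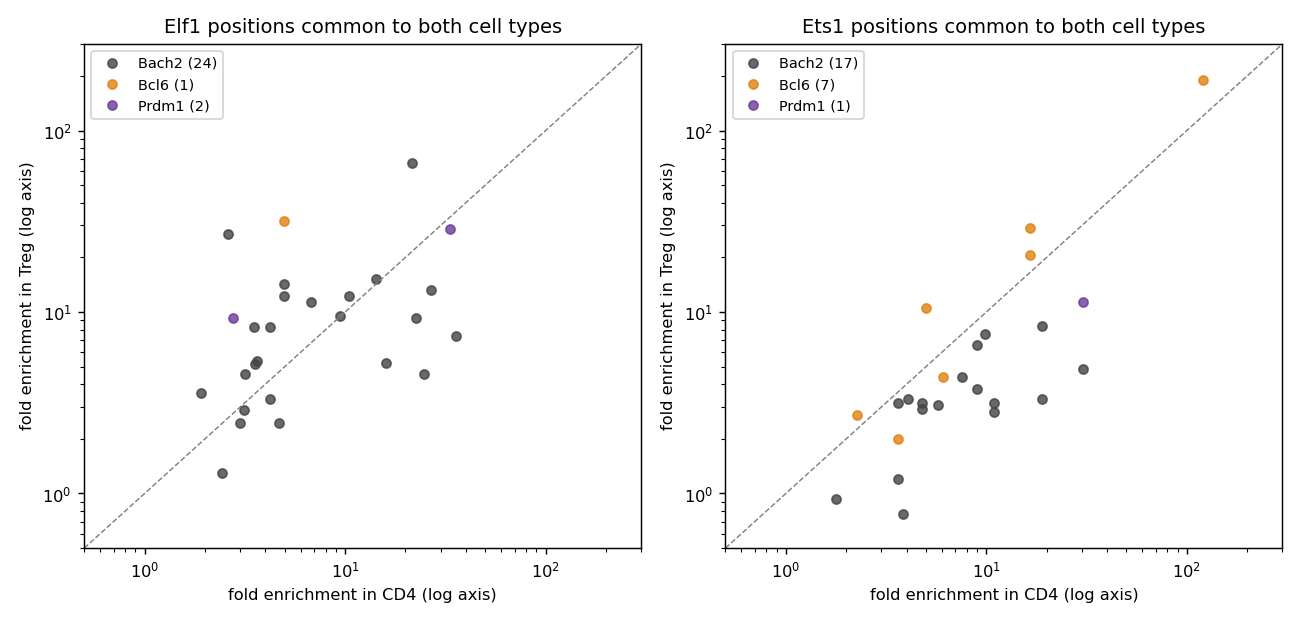
Fold enrichment in Treg against CD4 (log axes) for positions of Elf1 (left) and Ets1 (right) common to both cell types, coloured by window, with the line of equal values dashed. All 17 Ets1 points of Bach2 lie below the line, and 5 of the 7 of Bcl6 lie above it.

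Few Ets1 positions at Bach2 lacked a deposited Ets1 position of the other cell type, of any FDR, within 1 kb. This match is looser than that of passing positions within 200 bp. By the latter, 17 of 42 Treg and 16 of 55 CD4 Ets1 positions had a counterpart. No deposited CD4 Ets1 position of any FDR lay within 1 kb of 3 of 42 Treg Ets1 positions (7.14%, 1.498 to 19.5, against 51.7% of the whole list), and the reverse held for 11 of 55 CD4 Ets1 positions (10.4 to 33.0%, against 39.2%). For Elf1 it was 18 of 80 in Treg (22.5%, 13.9 to 33.2, against 65.0%) and 24 of 65 in CD4 (36.9%, 25.3 to 49.8, against 49.4%). A window dense in positions also offers more neighbours within 1 kb, and its part in these shares was not tested. The highest-scoring CD4 Ets1 position of this kind at Bach2, 32418171, was at 8.497-fold and lay 1 bp from a CD4 Elf1 position. The same kind of Treg Elf1 position, 32600893, was at 12.2-fold, the CD4 Elf1 position, 32325602, at 4.97-fold and the Treg Ets1 position, 32304046, at 2.57-fold. At Bcl6 the highest-scoring Treg Elf1 position of this kind was 24126711, at 26.9-fold and 137705 bp from the Foxp3 centre. A deposited CD4 Elf1 position lay 1050 bp from it, just beyond the 1 kb limit. The CD4 Elf1 position of this kind was 23984964, at 9.39-fold, with Treg Elf1 1582 bp away. The Ets1 positions of this kind at Bcl6 were near 2-fold, at 2.00 in Treg (24127947) and 2.15 in CD4 (24092294). Ets1 of the other cell type lay 9015 and 1406 bp from them. At Prdm1, 4 of 7 Treg Ets1 and 5 of 7 CD4 Ets1 positions had no Ets1 position of the other cell type within 1 kb. The highest-scoring CD4 Ets1 position of these, 44149546, was at 5.03-fold, 74 bp from a CD4 Elf1 position at 4.02-fold, itself without Treg Elf1 within 1 kb.

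Within Treg cells, 15 of 80 Elf1 positions at Bach2 had an Ets1 position within 200 bp (18.8%, 10.9 to 29.0, against 7.26% of the whole list), and 15 of 42 Ets1 positions had Elf1 (35.7%, 21.6 to 52.0, against 17.8%). In CD4 cells it was 23 of 65 Elf1 positions (35.4%, 23.9 to 48.2, against 27.5%) and 23 of 55 Ets1 positions (41.8%, 28.7 to 55.9, against 35.3%). Of the 36 Treg Cbfb positions at Bach2, 5 had Treg Elf1 (13.9%, 4.67 to 29.5, against 5.14%) and 5 had Treg Ets1 (against 2.97%). The Bach2 window is denser than the genome in every list and so offers more neighbours within 200 bp. The part of density in these shares was not tested. At Bcl6 2 of 12 Treg Ets1 and 1 of 9 CD4 Ets1 positions had Elf1 in the same cell type, and none of its 14 Cbfb positions did, which allows up to 23.2%.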

How the data were processed

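The windows were given for this work, and the members, lists and tests were chosen with earlier results of these data known. Per the submitters' processing notes, Bowtie 0.12.7 placed the reads on mm9. For Elf1, Ets1 and Cbfb the authors deposited single-base positions. Per the file headers these carry a score, an FDR, which is a q-value, and the fold enrichment (a ratio) with its lower bound. The caller, thresholds and control are not given in the sources used here. For Foxp3 the authors deposited 1 list of 200 bp intervals from combined replicates, per the labels, with no score. Read depth is unknown. The CD4 Cbfb library, labelled low in quality, and the inputs were not analysed here.

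Positions with FDR at most 0.01 were counted per window and set against the density over the 19 numbered chromosomes and X. Foxp3 peaks and positions were matched within 200 bp of the interval, and positions of different lists within 200 bp of each other. Intervals are exact 95% Poisson (densities) or Clopper-Pearson (shares) and cover counting error only. With 1 library per group no p-values are given. Named were all 8 Foxp3 peaks and, per window, the 2 highest-scoring positions of each list, the 5 strongest sites with 4 or 5 lists, and the highest-scoring Elf1 and Ets1 positions that lack a deposited counterpart of the other cell type within 1 kb. Other positions in the text were named after their values had been seen. Stretches, the span between Foxp3 peaks and the alternative of a lower bound of at least 1 were chosen after the values had been seen. Counting was tested on simulated data. Promoters came from RefSeq on GRCm38.p6, and no coordinates were converted. Python 3.11.15, numpy 2.4.6, pandas 2.3.3, scipy 1.17.1 and matplotlib 3.10.9 were used.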

Additional observations from a re-analysis of the deposited data

How the results depend on the processing

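Alternatives were an FDR of 0.001, all deposited positions, the 10000 or 20000 highest scores, windows narrowed by 20 or widened by 50 kb, distances of 100 or 500 bp, and, for the log2 ratios, lower bounds or scores in place of fold enrichment. Also counted were a lower bound of at least 1, which was unplanned, and, for Foxp3 peaks, distance from the interval midpoint. Of 128 alternative values of the main results 113 stayed within their limits, 11 moved and 4 changed sign. Of 160 values for single lists and shares 35 moved. The cause was not tested. The limits were wide, so a value within them was not shown to be stable. The Elf1 median log2 ratio at Bach2 stayed within them at 0.65 with all deposited positions, against 0.16. So did the 6 of 8 Foxp3 peaks given below, against 8 of 8. The Bach2 ratio to the genome was above 1 in 35 of 35 alternatives over its 5 lists, and its median was 7.81 with the 20000 highest scores. The Prdm1 median was 1.40 with all deposited positions. The share of Treg Elf1 positions with a counterpart over the 3 windows was 31.9% with all deposited positions, 42.9% with the 10000 and 46.4% with the 20000 highest scores. For CD4 Elf1 it was 47.9% at an FDR of 0.001, 66.7% with the 10000 highest scores and 46.8% at 500 bp. For Treg Ets1 it was 21.3% at 100 bp and 55.7% at 500 bp, and for CD4 Ets1 18.3% at 100 bp. The Elf1 log2 ratio over the 3 windows, 0.22, was -0.069 with the 10000 highest scores and -1.48 with scores. With scores it was -1.44 for Elf1 at Bach2 and -0.70 for Ets1 at Bcl6. The count of Foxp3 peaks with Elf1 or Ets1 in both cell types was 6 of 8 with the 10000 highest scores. No paired analysis was possible because each analysed Elf1, Ets1 and Cbfb group has 1 library and the Foxp3 list pools its replicates, and for the same reason no replicate could be left out. Unknown depth limits every comparison between libraries.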
